A study of Mus musculus with 6 samples.

Results

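The genes described here encode the lysosome's proton pump, its membrane proteins, its degradative enzymes and the complex that docks growth signalling on its surface. They were taken by gene symbol from the table of raw read counts and numbered 39 of the 55573 genes listed. The list was chosen with earlier results of these data known. By role they comprised 9 genes of the V-ATPase (the vacuolar proton pump), 9 of lysosomal membrane proteins, 16 of hydrolases and luminal cofactors, and 5 of Ragulator. Of these, 38 passed the filter on low counts, which asked for at least 1 CPM (the count scaled to a common library size) in at least 2 libraries. Sgsh (heparan N-sulfatase) did not.

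The study asked how lowering the excitability of cells born in the adult mouse olfactory system changes them. Male C57BL/6 mice of 3 months received a lentivirus into the rostral migratory stream, the path along which new neurons reach the bulb. In the control group the virus carried the calcium sensor Twitch-2B, with nuclear mCherry according to the study's methods. For the channel groups it carried Twitch-2B together with a potassium channel, either Kv1.2 (human cDNA) or Kir2.1 (mouse cDNA). At day 9 after injection, Twitch-2B-positive cells were sorted by fluorescence from the bulbs of 2 pooled mice per library, without a neuron-specific gate in the methods. Each of the 3 groups had 2 libraries, so the replicates are pools of different mice.

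Lysosomes digest material delivered by endocytosis, phagocytosis and autophagy. The V-ATPase has a membrane sector (V0), through which protons pass, and a cytosolic sector (V1), which burns ATP. The acid it makes keeps the hydrolases active, and the membrane glycoproteins shield the lysosome's own wall. Ragulator holds the Rag GTPases on the lysosome, where they recruit the growth kinase complex mTORC1. In the brain, microglia, the resident macrophages, are rich in lysosomes, and neurons depend on them to clear material along long processes. Transcription factors of the TFEB family bind CLEAR elements, short palindromes around a CACGTG core, in the promoters of many lysosomal genes.

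The promoters show which of these genes carry such an element. Promoter sequences from RefSeq (GRCm38.p6, 250 bases before to 50 bases after a transcript start chosen by RefSeq) were found for 35 of the 39 genes. Asah1, Atp6v1b2, Lamtor3 and Npc1 had no entry. The 8-letter palindrome TCACGTGA, which reads alike on both strands and contains CACGTG, was present in 5 of 35 (14.3%), against 304 of 27025 promoters in the table (1.12%). CACGTG alone was present in 12 of 35 (34.3%) against 2187 promoters (8.09%), and the palindrome with a G before it and a C after it in 0 of 35 against 100 promoters (0.37%). The 5 genes with the palindrome were the V-ATPase genes Atp6v0d1, Atp6v0e and Atp6v1a, the cation channel gene Mcoln1 and the hydrolase gene Gla, which held it 2 times. These stretches are shown because they are the sequence that these genes share, written along the gene's strand with the palindrome in capitals. The RefSeq start can differ from the end of the gene in GENCODE M21, and the Atp6v0e, Atp6v1a and Mcoln1 stretches lie within or overlap the GENCODE gene. Each is a match of letters in a window, not a measured binding site.
Atp6v0d1, chr8:105566061-105566088, minus strand: agagccaggccctactgcggTCACGTGA
Atp6v0e, chr17:26676378-26676405, plus strand: gcggggctttagcgcgccgaTCACGTGA
Atp6v1a, chr16:44139384-44139411, minus strand: agggtttttttttttttaaaTCACGTGA
Gla, chrX:134601206-134601253, minus strand: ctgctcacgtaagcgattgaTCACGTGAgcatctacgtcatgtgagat
Gla, chrX:134601173-134601220, minus strand: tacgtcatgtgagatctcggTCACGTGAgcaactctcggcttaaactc
Mcoln1, chr8:3500453-3500480, plus strand: gttcagttcaggcgccccgcTCACGTGA

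The libraries held between 8871595 and 13632970 counts. The labelled cell type was poorly represented in the channel libraries. The summed level of 14 neuroblast and neuron markers was 929.5 and 1931 CPM in the control libraries and between 13.9 and 93.6 CPM in the channel libraries. Dcx, which marks neuroblasts, had 0 counts in 3 of the 4 channel libraries. The summed level of 20 microglia markers was far higher in every library, at 62960 CPM in control replicate 1, 9019 CPM in control replicate 2, and between 50530 and 107400 CPM in the channel libraries. Control replicate 2 was the lowest of the 6 libraries for 20 of these 20 markers, and it also held the highest summed level of 8 astrocyte markers (2238 CPM, against 231 to 873.5 CPM elsewhere). Kir2.1 replicate 1 stood apart in 6 markers of border-associated macrophages, with 1537 CPM against 21.0 to 139.7 CPM in the others. The channel genes did not separate the groups. Kcna2, which encodes Kv1.2, was at 1.92 and 0.407 CPM in the Kv1.2 libraries and at 0.299 and 54.0 CPM in the controls, and reads of the human cDNA may align to the mouse gene only in part. Kcnj2, which encodes Kir2.1, was at 5.80 and 28.3 CPM in the Kir2.1 libraries and at 8.66 and 10.7 CPM in the controls. Every direction below therefore rests on the library labels.

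Most of the lysosomal genes lay higher in the libraries labelled Kv1.2 than in the controls, and fewer did so in those labelled Kir2.1. No single gene passed edgeR's quasi-likelihood test after adjustment. The median log2 fold change over the 38 genes was 1.28 in Kv1.2, where 33 lay above 0, against a median of -0.12 over all 12275 genes tested, of which 47.5% lay above 0. In Kir2.1 the median was 0.67, with 27 of 38 above 0, against 0.04 and 50.8% over all genes. With the channel groups combined it was 0.91, with 29 of 38 above 0, against -0.19 and 45.7%. The 20 microglia markers also lay higher. Their median was 1.32 in Kv1.2 (18 of 20 above 0), 1.16 in Kir2.1 (19 of 20) and 1.28 with the groups combined (19 of 20). Both comparisons use the same pair of control libraries and are not independent of each other.

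By edgeR's quasi-likelihood test with Benjamini-Hochberg adjustment over all genes, 0 of the 38 genes passed 0.05 in Kv1.2 (background 0%), 0 in Kir2.1 (background 0%) and 0 with the groups together (background 0.0244%). The lowest adjusted p of that test was 0.39 in Kv1.2, 0.52 in Kir2.1 and 0.29 with the groups together. At an unadjusted p under 0.05, 7 were higher in Kv1.2 (3.23% of all genes) and 1 was lower (8.81%), or 8 in all (12.0%). In Kir2.1 2 were higher (3.25%) and 2 lower (6.15%), or 4 in all (9.40%). With the groups together 7 were higher (2.85%) and 2 lower (10.5%), or 9 in all (13.4%). DESeq2 called 2 of the genes in Kv1.2 (Gla and Atp6v1a), where it called 1307 genes in all, and 0 in Kir2.1 (989 in all) or with the groups together (1228 in all). Of all genes with an adjusted p from DESeq2, these were 12%, 9.54% and 11.1%. Gla passed the count filter through the Kv1.2 libraries, in which it was high. edgeR's likelihood ratio test called 0 of the 38 in each, where it called 5.89% of all genes in Kv1.2, 1.83% in Kir2.1 and 8.94% with the groups together.

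The order of the libraries needs no model of the spread, but it rests on how the library sizes were scaled. All 4 channel libraries lay above both controls for 12 of 38 genes (31.6%), against a background of 8.52%, and below both for 3 of 38, against 13.8%. The 12 were Atp6v0b, Atp6v0c, Atp6ap1, Atp6ap2, Lamp1, Scarb2, Gusb, Hexa, Man2b1, Gm2a, Grn and Lgmn, and the 3 were Atp6v1a, Atp6v1e1 and Lamtor2. Both Kv1.2 libraries lay above both controls for 25 genes (background 19.3%) and below for 3 (24.9%). Both Kir2.1 libraries lay above for 13 (background 19.9%) and below for 7 (22.5%). Of the 20 microglia markers, all 4 channel libraries lay above both controls for 5 (25%). The Kv1.2 pair lay above for 14 (70%) and the Kir2.1 pair for 7 (35%).

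The size of the differences depended on control replicate 2. It was the lowest of the 6 libraries for 24 of the 38 genes, against 17.7% of all genes, and the highest for 4, against 21.7%. Control replicate 1 was the higher control for each of the 12 genes with all channel libraries above both controls, and the lower control for each of the 3 with all below, so these counts are set by control replicate 1 and the fold changes more by control replicate 2. Control replicate 1 lay within the range of the channel libraries for 21 of 38 (55.3%), close to the 59.1% of all genes. Without control replicate 2, the median log2 fold change fell to 0.52 in Kv1.2 (29 of 38 above 0), to 0.01 in Kir2.1 (20 of 38) and to 0.33 with the groups together (25 of 38). Without control replicate 1 it was 2.16, 1.47 and 1.78. In Kir2.1 it was 0.32 without Kir2.1 replicate 2 (23 of 38 above 0). This library is also the richer of the Kir2.1 pair in microglia markers, and in these bulk samples fewer cells of a type and less RNA per cell cannot be told apart.

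**Figure D1:**
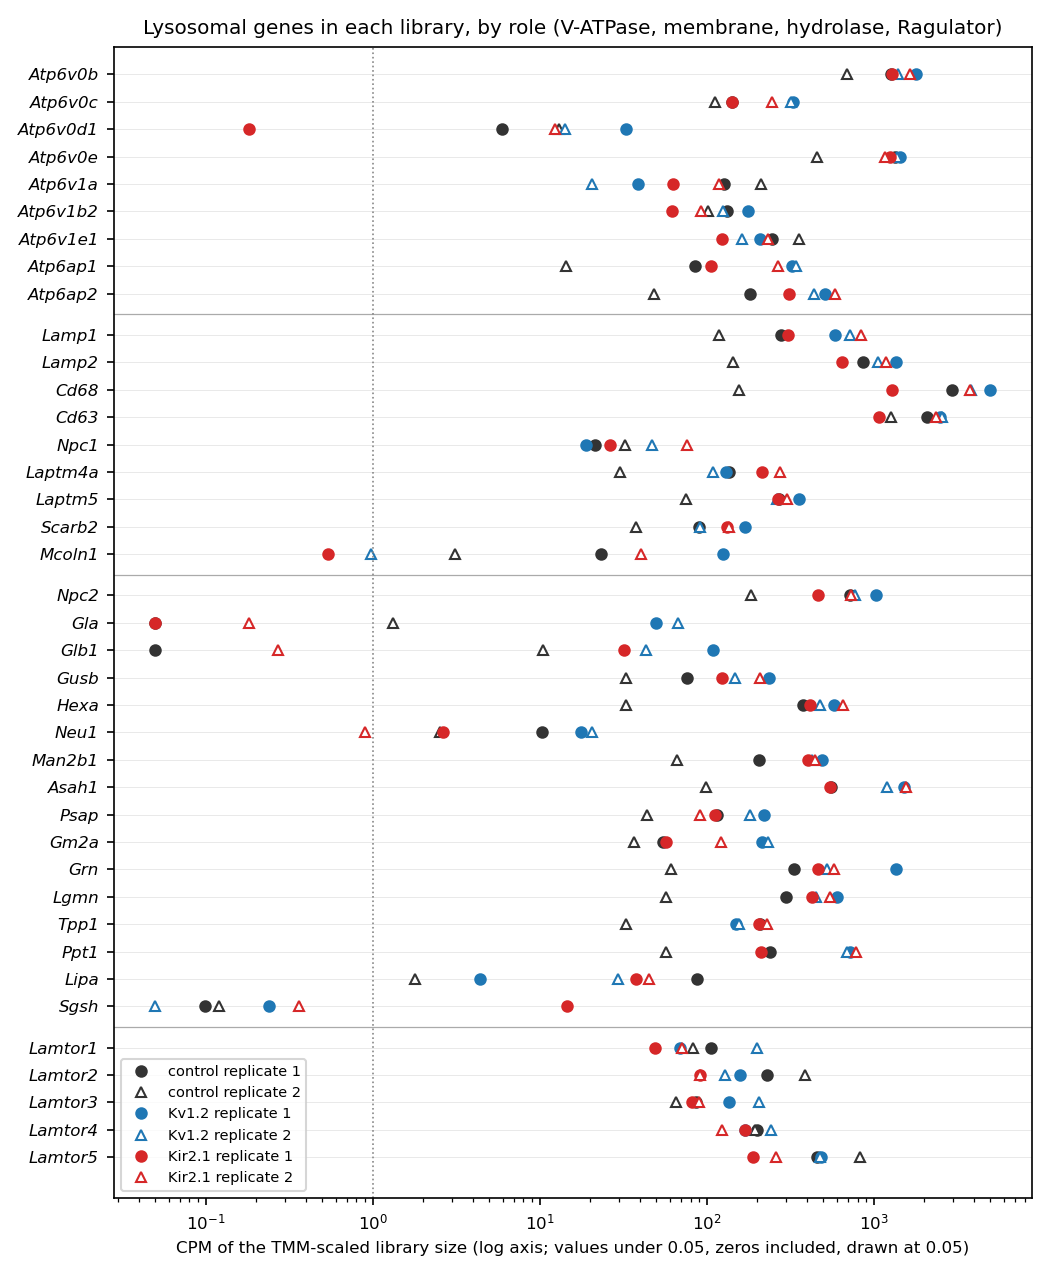
Level of each of the 39 genes in each library, in CPM on a log axis, grouped by role. Points are single libraries, colours the groups and symbols the replicates, values under 0.05 CPM are drawn at 0.05, and the dotted line marks 1 CPM. The open black triangles of control replicate 2 lie lowest for 24 of the 38 genes tested, mostly membrane and hydrolase genes.

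The V-ATPase genes were divided. All channel libraries lay above both controls for Atp6ap1, Atp6ap2, Atp6v0b and Atp6v0c, and below both for Atp6v1a and Atp6v1e1. Atp6ap2, which encodes an accessory subunit also known as the prorenin receptor, is at chrX:12587801-12617049 (GENCODE M21, GRCm38). It stood at 180.5 and 48.4 CPM in the control libraries, 509.1 and 441.0 CPM in Kv1.2, and 310.1 and 583.2 CPM in Kir2.1. All channel libraries were above both controls. The log2 fold change over both channel groups was 2.01 ± 0.72 (SE, 4 channel against 2 control libraries; edgeR's quasi-likelihood test, adjusted p = 0.29).

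Atp6ap1 encodes the other accessory subunit, Ac45, which helps the pump to assemble and to be sorted. It was at 84.7 and 14.4 CPM in the controls, 324.9 and 340.1 CPM in Kv1.2, and 106.3 and 267.3 CPM in Kir2.1. The controls differed from each other 5.90-fold, the widest gap of the 9 V-ATPase genes, and Kir2.1 replicate 1 lay only just above control replicate 1. Over both channel groups the log2 fold change was 2.33 ± 0.90 (edgeR's quasi-likelihood test, adjusted p = 0.33).

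The ring genes differed less. Atp6v0c, which encodes the c subunit that makes up most of the ring, stood at 142.3 and 112.8 CPM in the controls, 329.0 and 319.5 CPM in Kv1.2, and 142.4 and 244.9 CPM in Kir2.1. Kir2.1 replicate 1 was level with control replicate 1. Atp6v0b, which encodes the related c″ subunit, was at 1265 and 687.2 CPM in the controls, 1799 and 1391 CPM in Kv1.2, and 1285 and 1659 CPM in Kir2.1. With the channel groups combined, Atp6v0c differed by 0.97 ± 0.54 and Atp6v0b by 0.65 ± 0.49 on the log2 scale (edgeR's quasi-likelihood test, adjusted p = 0.48 and 0.60).

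Atp6v1a went the other way. It encodes the catalytic A subunit, which splits ATP, and its promoter is among the 5 with the palindrome. The gene lies at chr16:44085402-44139705. It stood at 126.1 and 210.3 CPM in the controls, 38.8 and 20.7 CPM in Kv1.2, and 63.0 and 118.5 CPM in Kir2.1. All channel libraries were below both controls, and the Kv1.2 pair was the lowest. The log2 fold change was -2.50 ± 0.84 in Kv1.2 (edgeR's quasi-likelihood test, adjusted p = 0.39) and -0.89 ± 0.80 in Kir2.1 (adjusted p = 0.77). DESeq2 gave -2.61 in Kv1.2 with an adjusted p of 0.0455, while edgeR's quasi-likelihood test gave 0.39 on the same counts.

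Atp6v1e1, which encodes a subunit of the peripheral stalk, was also below both controls in every channel library. It was at 244.8 and 355.7 CPM in the controls, 209.6 and 161.9 CPM in Kv1.2, and 122.8 and 233.4 CPM in Kir2.1. The nearest values, 233.4 and 244.8 CPM, differed by less than the spread within either group, and the adjusted p over both channel groups was 0.59 by edgeR's quasi-likelihood test. The remaining V-ATPase genes overlapped between the channel and control libraries. Atp6v0e, which encodes a small V0 subunit, ranged from 456.7 CPM in control replicate 2 to 1430 CPM in Kv1.2 replicate 1. Atp6v1b2, the B subunit of the pump in most tissues, ranged from 62.1 to 177.1 CPM. Atp6v0d1, the stalk subunit of V0, ranged from 0.181 to 32.7 CPM.

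The membrane genes were the most uniform in direction with all libraries in the fit. The log2 fold change was above 0 for 9 of 9 in both Kv1.2 (median 1.02) and Kir2.1 (median 0.86), but 0 of 9 passed adjustment and the lowest adjusted p with the groups together was 0.36 by edgeR's quasi-likelihood test. Without control replicate 2 the medians were 0.44 (8 of 9 above 0) and 0.02 (6 of 9). In Kir2.1 the median was 0.35 without Kir2.1 replicate 2 (5 of 9 above 0) and 1.30 without Kir2.1 replicate 1 (9 of 9). Lamp1 encodes, with Lamp2, the main glycoproteins of the lysosomal wall, and lies at chr8:13159161-13175338, where it overlaps Grtp1 on the opposite strand. No source names the strand setting of the counting, so reads of the overlap cannot be told apart. Lamp1 was at 279.5 and 118.8 CPM in the controls, 585.2 and 719.8 CPM in Kv1.2, and 306.1 and 844.5 CPM in Kir2.1. All channel libraries were higher than both controls, by a small margin in Kir2.1 replicate 1. Over both channel groups the log2 fold change was 1.62 ± 0.67 (edgeR's quasi-likelihood test, adjusted p = 0.36).

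Scarb2 encodes LIMP-2, an abundant protein of the lysosomal wall that also works as a sorting receptor. It stood at 90.1 and 37.8 CPM in the controls, 168.5 and 90.8 CPM in Kv1.2, and 131.4 and 136.4 CPM in Kir2.1. Kv1.2 replicate 2 lay at the level of control replicate 1, so the order of the libraries rested on a difference under 1 CPM. Lamp2, which also serves chaperone-mediated autophagy, was at 866.0 and 143.8 CPM in the controls, 1355 and 1061 CPM in Kv1.2, and 643.5 and 1184 CPM in Kir2.1. The Kir2.1 and control libraries of Lamp2 overlapped.

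Laptm4a, a gene for a small transmembrane protein of late endosomes and lysosomes, was at 136.7 and 30.3 CPM in the controls, 131.1 and 109.1 CPM in Kv1.2, and 214.1 and 273.4 CPM in Kir2.1. It was higher than both controls in the Kir2.1 libraries only, and its log2 fold change was 0.52 ± 0.83 in Kv1.2 and 1.55 ± 0.85 in Kir2.1 (edgeR's quasi-likelihood test, adjusted p = 0.91 and 0.58). Without control replicate 2 the value in Kv1.2 turned to -0.27. The difference between the channel groups did not pass the same test (adjusted p = 0.89).

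Cd68, macrosialin, is a glycoprotein of macrophage lysosomes and the gene with the highest level per kilobase of the 39, with a median of 2676 CPM per kilobase over the libraries. It lies at chr11:69664213-69666153. It stood at 2949 and 156.4 CPM in the controls, 4984 and 3846 CPM in Kv1.2, and 1294 and 3779 CPM in Kir2.1. The controls differed 18.9-fold, and Kir2.1 replicate 1 was below control replicate 1. Its log2 fold change in Kir2.1 was 0.71 ± 1.17, and it turned to -0.29 without control replicate 2 and to -0.26 without Kir2.1 replicate 2. Cd63, a tetraspanin of late endosomes, ranged from 1078 to 2547 CPM, Laptm5, a lysosomal protein of blood-derived and microglial cells, from 75.3 to 357.6 CPM, and Npc1, which exports cholesterol, from 18.8 to 76.5 CPM. Mcoln1, the calcium-releasing channel with the palindrome in its promoter, was the most scattered, from 0.544 to 124.5 CPM, and its Kv1.2 replicates stood at 124.5 and 0.977 CPM.

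**Figure D2:**
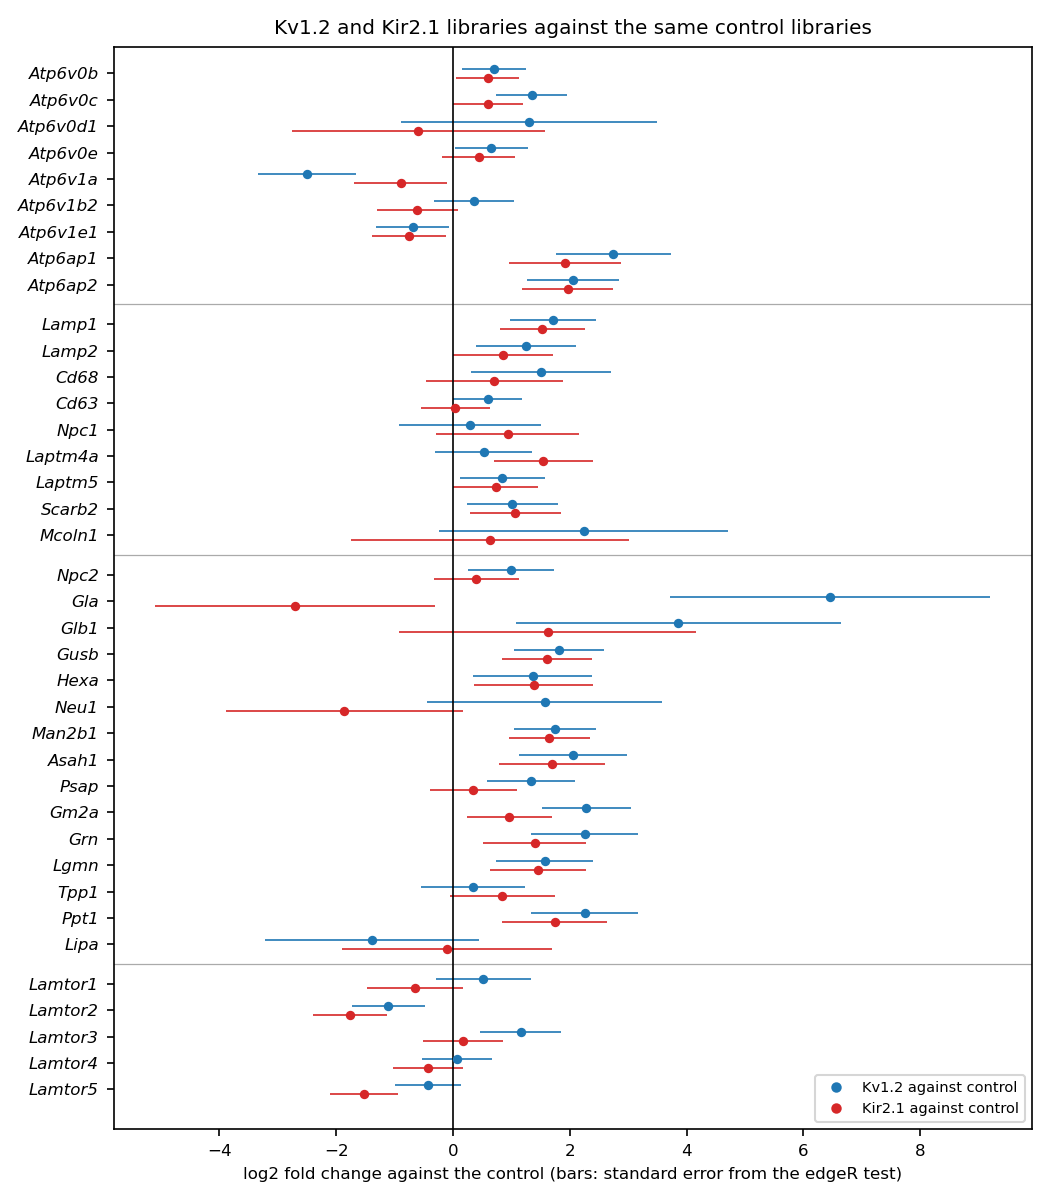
Log2 fold change of each of the 38 genes tested in Kv1.2 (blue) and Kir2.1 (red) against the same control libraries, with the standard error of edgeR's quasi-likelihood test as bars. The membrane genes lie to the right of 0 in both comparisons, the hydrolases do so for 14 of 15 in Kv1.2 and 12 of 15 in Kir2.1, and the Ragulator genes lie to the left in Kir2.1 for 4 of 5.

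Hydrolases and their cofactors lay further from the controls than the other roles. The median log2 fold change was 1.75 in Kv1.2, with 14 of 15 above 0, and 1.38 in Kir2.1, with 12 of 15. Both Kv1.2 libraries lay above both controls for 13 of the 15 genes (19.3% of all genes), and both Kir2.1 libraries for 6 (19.9% of all genes). Without control replicate 2 the medians were 1.07 (13 of 15 above 0) and 0.63 (10 of 15). Adjusted p ran from 0.39 to 0.96 in Kv1.2 and from 0.53 to 0.99 in Kir2.1 by edgeR's quasi-likelihood test.

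Man2b1, the acid alpha-mannosidase gene, had the lowest p of the hydrolases with the groups together. It lies at chr8:85083270-85098282. It was at 205.9 and 66.2 CPM in the controls, 487.8 and 426.9 CPM in Kv1.2, and 405.7 and 445.1 CPM in Kir2.1. The 4 channel libraries lay close together and above both controls. In Kv1.2 the log2 fold change was 1.75 ± 0.70 and in Kir2.1 it was 1.64 ± 0.69 (edgeR's quasi-likelihood test, adjusted p = 0.41 and 0.53).

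Gusb, the beta-glucuronidase gene, behaved alike. It stood at 76.4 and 32.8 CPM in the controls, 234.6 and 148.7 CPM in Kv1.2, and 124.3 and 209.6 CPM in Kir2.1. Its channel libraries were all above both controls, and the log2 fold change over both groups was 1.71 ± 0.70 (edgeR's quasi-likelihood test, adjusted p = 0.36).

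Gm2a and Hexa act together, since the GM2 activator protein presents the ganglioside GM2 to hexosaminidase A, whose alpha subunit Hexa encodes. Gm2a was at 54.9 and 36.6 CPM in the controls, 214.2 and 231.8 CPM in Kv1.2, and 56.9 and 122.0 CPM in Kir2.1. Its controls were the closest of the hydrolases (1.50-fold apart), and its Kv1.2 libraries were the highest of the 6. The log2 fold change was 2.29 ± 0.76 in Kv1.2, the lowest unadjusted p of the 38 genes in that comparison (0.0193, edgeR's quasi-likelihood test; adjusted p = 0.39), and 0.97 ± 0.73 in Kir2.1. Hexa was at 377.3 and 33.0 CPM in the controls, 577.7 and 480.0 CPM in Kv1.2, and 414.9 and 653.7 CPM in Kir2.1. Control replicate 2 was far below the other libraries of Hexa.

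Ppt1 encodes palmitoyl-protein thioesterase, which removes fatty acids from proteins. It stood at 239.8 and 57.2 CPM in the controls, 725.8 and 691.1 CPM in Kv1.2, and 212.2 and 779.2 CPM in Kir2.1. Kir2.1 replicate 1 fell between the controls, and the other 3 channel libraries were well above them. Grn, which encodes progranulin, a luminal regulator of hydrolases that microglia secrete, was at 334.9 and 61.3 CPM in the controls, 1361 and 526.7 CPM in Kv1.2, and 462.3 and 581.1 CPM in Kir2.1. All channel libraries of Grn were above both controls, and the log2 fold change over both groups was 1.82 ± 0.83 (edgeR's quasi-likelihood test, adjusted p = 0.40).

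Lgmn, the asparaginyl endopeptidase that activates other lysosomal proteases, stood at 299.1 and 57.2 CPM in the controls, 606.2 and 451.3 CPM in Kv1.2, and 426.8 and 550.9 CPM in Kir2.1. Each channel library was above both controls. Lipa, the acid lipase gene, showed the widest gap between controls, 87.3 and 1.80 CPM (48.6-fold), and was at 4.41 and 29.6 CPM in Kv1.2 and 37.7 and 45.2 CPM in Kir2.1. The channel libraries of Lipa all fell between the controls, so its negative log2 fold changes have no counterpart in the order of the libraries.

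Gla, which encodes alpha-galactosidase A, was the gene that most separated the channel groups. It lies at chrX:134588149-134601125, and its promoter window holds the palindrome 2 times. Its counts were 0 and 11 in the controls, 620 and 831 in Kv1.2, and 0 and 2 in Kir2.1. Expressed in CPM, only the Kv1.2 libraries exceeded 2, at 49.7 and 67.6. Of the other libraries only control replicate 2 reached 1 CPM, at 1.32. Gla therefore passed the count filter through the group in which it was high, and its calls in Kv1.2 are no independent support for a difference. The log2 fold change in Kv1.2 was 6.46 ± 2.74 (edgeR's quasi-likelihood test, adjusted p = 0.41), while DESeq2 gave 6.38 with an adjusted p of 0.0149. In Kir2.1 the pooled level was 6.60-fold lower than in the controls, with a 95% counting interval of 1.44 to 61.3, which covers counting error only. Glb1, the beta-galactosidase gene, also had 0 counts in control replicate 1 but 88 in control replicate 2, and it stood at 1368 and 534 counts in Kv1.2 and at 355 and 3 in Kir2.1, so its replicates differed by as much as the groups.

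The other hydrolases overlapped between the channel libraries and control replicate 1. Asah1, acid ceramidase, ranged from 98.5 CPM in control replicate 2 to 1568 CPM in Kir2.1 replicate 2, Npc2, the luminal partner of Npc1, from 183.7 to 1028 CPM, and Psap, the precursor of the saposins, from 43.9 to 220.2 CPM. Tpp1, tripeptidyl peptidase, ranged from 32.8 to 228.3 CPM and Neu1, a sialidase, from 0.906 to 20.5 CPM. Control replicate 2 was the lowest library for Asah1, Npc2, Psap and Tpp1. Sgsh was outside the test. It had 1 count in each control, 3 and 0 in Kv1.2, and 160 and 4 in Kir2.1. The Kir2.1 to control ratio of 68.3 (95% counting interval 18.6 to 569) came from Kir2.1 replicate 1.

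Ragulator was the role in which the level did not lie higher. The median log2 fold change was 0.07 in Kv1.2 (3 of 5 above 0) and -0.65 in Kir2.1 (1 of 5), and in Kir2.1 both libraries lay below both controls for 4 of the 5 genes (22.5% of all genes). Lamtor2, which forms a dimer with Lamtor3 at the centre of the complex, lies at chr3:88549819-88553074. It was at 229.7 and 389.9 CPM in the controls, 158.6 and 128.4 CPM in Kv1.2, and 91.2 and 90.7 CPM in Kir2.1. All channel libraries were below both controls, and the Kir2.1 pair was the lowest. Its log2 fold change over both groups, -1.44 ± 0.51, had the lowest adjusted p of the 38 genes (0.29, edgeR's quasi-likelihood test).

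Lamtor5, which pairs with Lamtor4, stood at 460.1 and 828.0 CPM in the controls, 483.5 and 474.5 CPM in Kv1.2, and 188.2 and 258.5 CPM in Kir2.1. Only the Kir2.1 libraries were below both controls, with a log2 fold change of -1.53 ± 0.58 (edgeR's quasi-likelihood test, unadjusted p = 0.0335, adjusted p = 0.52). Lamtor3 was at 86.7 and 65.7 CPM in the controls, 135.4 and 205.7 CPM in Kv1.2, and 81.8 and 89.4 CPM in Kir2.1. It was the Ragulator gene that was higher than both controls in both Kv1.2 libraries, at a log2 fold change of 1.16 ± 0.70 (edgeR's quasi-likelihood test, adjusted p = 0.53). Lamtor4 ranged from 123.0 to 243.0 CPM and Lamtor1, the membrane anchor of the complex, from 49.0 to 200.7 CPM, with the Kir2.1 libraries of each below both controls.

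The summed levels show the same split between roles. The 16 hydrolase genes summed to 3288 and 719.6 CPM in the controls, 7311 and 5434 CPM in Kv1.2, and 3519 and 6006 CPM in Kir2.1. The membrane genes summed to 6729 and 1858 CPM, 10230 and 8685 CPM, and 3963 and 9002 CPM in the same order. The V-ATPase genes spanned a narrower range, from 2001 CPM in control replicate 2 to 4850 CPM in Kv1.2 replicate 1. Ragulator ran against these, with its highest sum, 1560 CPM, in control replicate 2 and its lowest, 579.9 and 632.5 CPM, in the Kir2.1 libraries. The library with the lowest sum of the first 3 roles, control replicate 2, was the lowest in microglia markers and the highest in neuron markers.

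**Figure D3:**
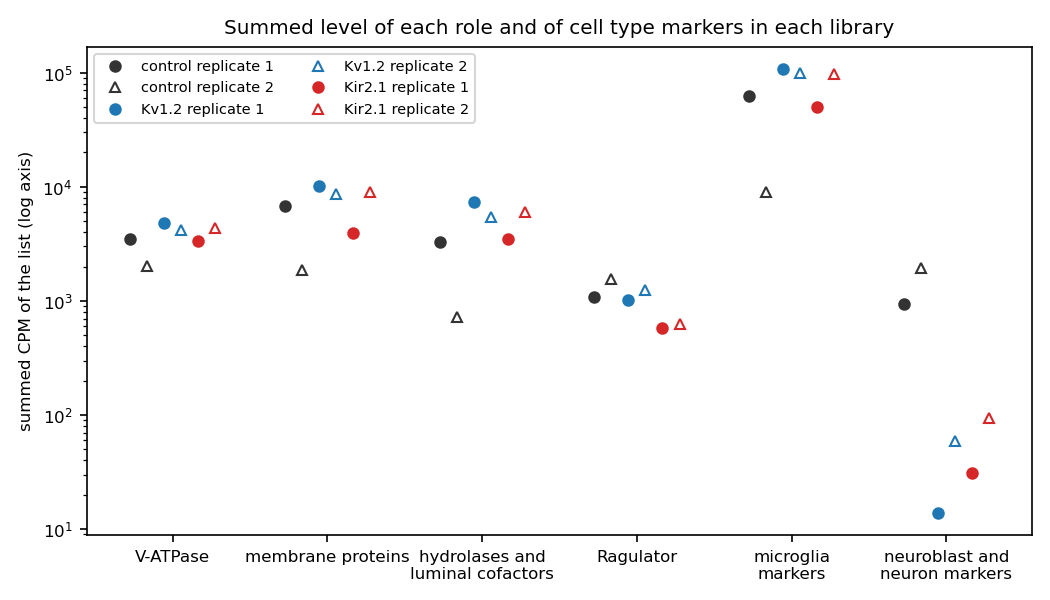
Summed CPM of each role and of the microglia and neuron markers in each library, on a log axis. Points are single libraries. Control replicate 2 (open black triangles) is lowest for V-ATPase, membrane and hydrolase genes and for microglia markers (9019 CPM), and highest for Ragulator (1560 CPM) and neuron markers (1931 CPM).

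Set against the microglia markers, the sum of the 39 genes was close in the channel libraries and control replicate 1, and control replicate 2 stood apart. The roles differed in this. The 39 genes together amounted to 23.2 CPM per 100 CPM of microglia markers in control replicate 1 and to 21.8, 19.8, 22.6 and 20.6 in the channel libraries, but to 68.1 in control replicate 2. For the V-ATPase the values were 5.58 in control replicate 1, 22.2 in control replicate 2, and 4.52, 4.24, 6.62 and 4.51 in the channel libraries. Membrane genes stood at 10.7, at 20.6, and at 9.53, 8.77, 7.84 and 9.26 in the same order. The hydrolases showed the gap least, at 5.22 in control replicate 1 and 7.98 in control replicate 2. Their channel libraries, at 6.81, 5.49, 6.96 and 6.18, lay between the controls. Ragulator had the widest range, from 17.3 in control replicate 2 to 0.651 in Kir2.1 replicate 2. The part of the microglia markers in the lysosomal differences was not tested. None of the 39 genes is among the 20 markers, but Cd68 and Laptm5 are themselves genes of macrophage or microglial lysosomes. Cd68 gave 2949 of the 14620 CPM of the 39 genes in control replicate 1 and 156.4 of 6139 CPM in control replicate 2. The sum of the 39 genes is thus not wholly separate from the markers.

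The controls themselves differed by role. The median ratio of control replicate 1 to control replicate 2 was 1.30 for the V-ATPase, 3.59 for membrane genes, 4.19 for hydrolases (13 of 13 above 1, with Gla and Glb1 at 0 counts in control replicate 1) and 1.03 for Ragulator. It was 6.76 for microglia markers and 0.28 for the 11 neuron markers that passed the filter on low counts. The membrane and hydrolase genes, which lay furthest above the controls in the channel libraries, were those in which the controls lay furthest apart. Both values use control replicate 2, so they are not independent of each other.

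**Figure D4:**
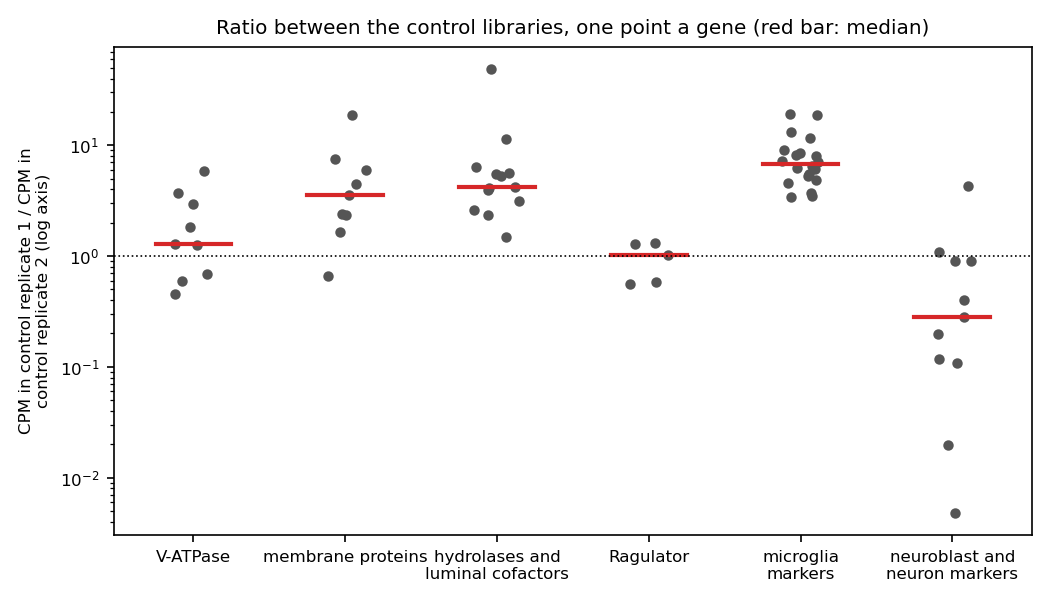
Ratio of the level in control replicate 1 to that in control replicate 2, on a log axis, with 1 point per gene and the median as a red bar. Hydrolases (median 4.19) and membrane genes (3.59) lie toward the microglia markers (6.76), while V-ATPase (1.30) and Ragulator genes (1.03) lie near 1.

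Levels per kilobase of gene length put Atp6v0b (652 CPM per kilobase), Cd63 (605), Lamtor5 (529) and Atp6v0e (349) after Cd68 as medians over the 6 libraries. Mcoln1 (1.76), Neu1 (1.74) and Gla (0.229) were the lowest of those tested. Gene length includes parts that a given transcript may lack, so these levels order the genes only roughly.

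Between the channel groups, the lysosomal genes lay lower in Kir2.1 than in Kv1.2 for 31 of 38, with a median log2 fold change of -0.51 against 0.13 over all genes. Both Kir2.1 libraries were below both Kv1.2 libraries for 17 of 38 genes (background 16.7%) and above for 4 (21.5%). By edgeR's quasi-likelihood test 0 of 38 passed adjustment (background 0%), and at an unadjusted p under 0.05 there was 1, Gla (background 6.08%), which was lower (2.05%), and 0 were higher (4.02%). DESeq2 also called Gla and no other of the 38 (6.36% of all genes with an adjusted p), and the likelihood ratio test called 0 of the 38 (0.554% of all genes). Gla had passed the count filter through the Kv1.2 libraries, in which it was high. Ragulator lay lower for 5 of 5 genes, with a median of -0.99, and the Kir2.1 libraries lay below the Kv1.2 libraries for 4 of the 5 (16.7% of all genes). The median over the 38 genes was -0.15 without Kir2.1 replicate 1 and -0.96 without Kir2.1 replicate 2.

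Other genes of the same organelle, from lists of further subunits and enzymes, were less uniform. Of 24 other hydrolases tested, 16 lay above 0 in Kv1.2 and 16 in Kir2.1, with medians of 0.90 and 1.02, and 0 passed adjustment by edgeR's quasi-likelihood test (3 and 4 at an unadjusted p under 0.05, each of them higher, against 3.23% and 3.25% of all genes).

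Of 10 other V-ATPase subunits tested, 7 lay above 0 in Kv1.2 and 4 in Kir2.1. Tcirg1, which encodes the a3 subunit of macrophage and osteoclast pumps, was at 32.1 and 10.3 CPM in the controls, 107.7 and 224.4 CPM in Kv1.2, and 207.6 and 69.5 CPM in Kir2.1. Atp6v0e2, which encodes the other form of the e subunit, had 249 and 269 counts in the controls and 0 in the 4 channel libraries. It was at least 232-fold lower in Kv1.2 and at least 207-fold lower in Kir2.1, taking 3 counts over each group as the floor. Atp6v0e2 passed the count filter only through the controls, the group in which it was high. Neither gene passed adjustment by edgeR's quasi-likelihood test (adjusted p = 0.25 and 0.20 with the groups together). The channel libraries thus lay above the controls for Tcirg1 and below them for Atp6v0e2.

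Of 17 other membrane proteins tested, 9 lay above 0 in Kv1.2 and 14 in Kir2.1. Slc29a3, a lysosomal nucleoside transporter gene, was at 19.1 and 13.9 CPM in the controls, 156.6 and 69.3 CPM in Kv1.2, and 117.1 and 52.1 CPM in Kir2.1. Slc11a1, which encodes a metal transporter of macrophage phagosomes, was at 25.8 and 2.16 CPM in the controls and between 67.9 and 103.5 CPM in the channel libraries. For sorting by mannose 6-phosphate, the tag that sends hydrolases to the lysosome, 5 of 8 genes lay above 0 in Kv1.2 and 4 of 8 in Kir2.1. M6pr, the smaller receptor for this tag, was at 48.7 and 29.7 CPM in the controls, 201.2 and 223.8 CPM in Kv1.2, and 120.8 and 137.6 CPM in Kir2.1. Its groups did not overlap, and the log2 fold change over both was 2.08 ± 0.64 (edgeR's quasi-likelihood test, adjusted p = 0.23). Nagpa, which uncovers the tag, was at 0.299 and 1.56 CPM in the controls, 22.5 and 25.3 CPM in Kv1.2, and 4.17 and 1.09 CPM in Kir2.1.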

How the data were processed

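RNA of Twitch-2B-positive cells was amplified with a full-length cDNA kit and sequenced. According to the submitters' processing notes and the study's methods, the authors aligned reads to GRCm38 with STAR 2.7.0f, removed multi-mapping reads with SAMtools 1.9 and deposited raw gene counts made with Subread 1.6.4. Counts of near-identical copies (pseudogenes are named for Atp6v0c and Cd63) may be incomplete, and 11 of the 39 genes overlap a gene on the opposite strand, among those with values given Atp6v0b, Atp6v1e1, Lamp1, Scarb2, Hexa, Grn and Ppt1. The authors' normalized tables and comparison tables (fold changes and p-values) were not used. The labels and the study's methods describe different sequencing runs, which was not resolved.

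The 12275 genes that reached 1 CPM in 2 or more libraries were scaled by TMM and fitted over the 6 libraries with edgeR 4.0.16 (quasi-likelihood test, limma 3.58.1, R 4.3.3), with 4 comparisons and Benjamini-Hochberg adjustment over all genes tested. The script was tested on simulated data. CPM use the TMM-scaled library size, and standard errors were computed back from the test statistic. Alternatives were DESeq2 1.42.0, edgeR's likelihood ratio test, RLE scaling, other filters, a replicate block, only the groups compared, and leaving out each library. The 39 genes, the 7 lists of other lysosomal genes and the marker lists were chosen with earlier results of these data known. Values in all libraries are given for up to 4 genes per role with the smallest p over both channel groups, for those at an unadjusted p under 0.05, for those whose channel and control libraries do not overlap, and for the widest gap between controls in each role, and for up to 2 genes per other list. Depth ranged from 8871595 to 13632970 counts, and counting intervals (95%, exact) cover counting error only. Some genes of the list of other hydrolases are not reported here.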

Additional observations from a re-analysis of the deposited data

How the results depend on the processing

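Of the 38 genes tested, DESeq2 called 2 in Kv1.2 (12% of all genes with an adjusted p) and 1 in Kir2.1 against Kv1.2 (6.36%). A fit with no count minimum called 2 of 39 in Kv1.2 and 1 of 39 with the groups together. No share of all genes is at hand for that fit, so its calls cannot be set against a background. In Kv1.2 the calls were Atp6v1a (-2.61) and Gla (6.38) by DESeq2, and without a minimum they included Cd68 (edgeR's quasi-likelihood test, adjusted p = 0.0103). The likelihood ratio test called 0, where it called between 0.554% and 8.94% of all genes. RLE scaling, the other filter and the fit of only the groups compared also called 0. No share of all genes is at hand for those fits. Leaving out each library in turn, the median log2 fold change over the genes ranged from 0.52 to 2.16 in Kv1.2, from 0.0135 to 1.47 in Kir2.1 and from 0.33 to 1.78 with the groups together, the lowest without control replicate 2 and the highest without control replicate 1, and from -0.96 to -0.15 between the channel groups. Among single genes, the log2 fold change ranged from -0.27 to 1.88 for Laptm4a in Kv1.2, from -0.084 to 0.29 for Lamtor3 in Kir2.1 and from -0.29 to 3.93 for Cd68 in Kir2.1, each lowest without control replicate 2 and highest without control replicate 1. Cd68 in Kir2.1 was also below 0, at -0.26, without Kir2.1 replicate 2. The cause was not tested. RLE scaling gave medians of 1.18 in Kv1.2 and 0.60 in Kir2.1. The labels do not say whether the replicate numbers pair the samples. No shared effect of the replicate number was visible (correlations of the deviations 0.01, -0.04 and -0.00 over 12275 genes). A fit with the replicate number as a block gave medians of 1.40, 0.71, 0.97 and -0.38 and called 0 of the genes in each comparison. It called 0.0733% of all genes with the groups together and 0% in the other comparisons. Leaving out Kir2.1 replicate 1, an alternative added after the data were seen, 19 of 38 genes lay above both controls in all remaining channel libraries (13.2% of all genes) and 3 below (18.6%). Each group held 2 libraries, which limits the precision of every comparison.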

Other observations

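Values of genes that act on the lysosome or feed it are given here by list. Of 12 genes tested among mTORC1, its Rag partners and regulators, 4 lay above 0 in Kv1.2 and 5 in Kir2.1, with medians of -0.48 and -0.30, and 0 passed adjustment by edgeR's quasi-likelihood test (1 and 2 at an unadjusted p under 0.05, each lower, against 8.81% and 6.15% of all genes). Mlst8, a core subunit of mTORC1, had 3 and 1115 counts in the controls, 0 in the Kv1.2 libraries, and 286 and 5 in the Kir2.1 libraries, so its level in the controls came from control replicate 2. Rragd, a Rag GTPase gene, had 38 and 422 counts in the controls, 0 and 182 in Kv1.2, and 0 in the Kir2.1 libraries.

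Of the TFEB family, 3 of 4 genes were tested, 0 of 3 lay above 0 in Kv1.2 and 2 of 3 in Kir2.1 (medians -1.39 and 0.52), and 0 passed adjustment (0 at an unadjusted p under 0.05, edgeR's quasi-likelihood test). Mitf was at 10.2 and 4.07 CPM in the controls, 2.72 and 0.163 CPM in Kv1.2, and 6.79 and 5.34 CPM in Kir2.1. Tfe3 was at 44.3 and 8.14 CPM in the controls, 18.3 and 1.79 CPM in Kv1.2, and 8.88 and 66.2 CPM in Kir2.1, so its groups overlapped. Of 10 autophagosome genes, 6 lay above 0 in Kv1.2 and 4 in Kir2.1, with medians of 0.04 and -0.22, and 0 had an unadjusted p under 0.05 by edgeR's quasi-likelihood test. Gabarapl1, which encodes a protein of the autophagosome membrane, was at 32.9 and 59.0 CPM in the controls and between 0.0801 and 8.52 CPM in the channel libraries. Gabarapl2, a relative, was at 262.0 and 383.9 CPM in the controls and between 127.0 and 232.0 CPM in the channel libraries. Both were below the controls in all 4 channel libraries, which held for 2 of the 10 genes (20%) against 13.8% of all genes. Neither passed the test (adjusted p = 0.45 and 0.58 with the groups together, edgeR's quasi-likelihood test).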
